A study of Mus musculus with 12 samples.

Results

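The genes described here are 9 receptors and adhesion molecules that place B cells in tissue: the chemokine receptors Cxcr4, Cxcr5, Ccr7 and Ccr9, the sphingosine-1-phosphate receptor S1pr1, and the integrin subunits Itga4, Itgb1, Itgb7 and Itgal. They were chosen by name, with earlier results of these data known. All 9 of 9 were found among the 27179 genes of the count table and passed the filter on low counts. RNA was measured in mature B cells of C57BL/6 mouse bone marrow, sorted as B220high, IgM+ and CD93-. Young wild-type mice were 9, 10 and 11 weeks old and old wild-type mice 98, 99 and 100 weeks. The other groups were 10 weeks old and lacked Bak, a pore-forming protein of the mitochondrial route of cell death. Cells labelled Bak-/- Baxfl/fl kept Bax, which does the same work, and are called apoptosis-sensitive here. Cells labelled Bak-/- BaxD/D had lost Bax and are called apoptosis-resistant. How and in which cells Bax was deleted was not given in the sources used here. Each group had 3 libraries, 12 in all. The question put to the data was how the RNA of these genes differed with age, and with the loss of Bax in young cells that also lacked Bak.

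Recirculating mature B cells enter the marrow from blood and leave it again. CXCR4 reads CXCL12 made by marrow stroma and holds B-lineage cells there, while S1PR1 reads the sphingosine-1-phosphate of blood and lymph and draws cells out. CXCR5 and CCR7 guide cells to follicles and to T cell zones, and CCR9 to CCL25 in small intestine and thymus. Integrins work as pairs of an alpha and a beta subunit: alpha 4 pairs with beta 1 as VLA-4, which binds VCAM-1 on marrow stroma and endothelium, or with beta 7, which binds MAdCAM-1 of gut vessels. Alpha L, encoded by Itgal, pairs with beta 2 as LFA-1, which binds ICAM-1.

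RefSeq gave promoter sequence for 5 of the 9 genes on the GRCm38.p6 build: Cxcr4, Ccr9, Itga4, Itgb1 and Itgb7. Klf2 and Foxo1 are transcription factors known to act on homing receptor genes, and E2A acts at E-boxes in B cells, so the 250 bases before each start were searched on both strands for the KLF letters CACACCC, the FOXO letters TGTTTAC and the E-box CAGCTG. These stand in 6.93%, 3.17% and 13% of 32851 promoters of the same length, and none of the 3 motifs overlaps another where it was found. The windows of Ccr9 and Itgb1, the genes that rose with age, are given with that of Itgb7, the other beta partner of alpha 4. Each runs 5′ to 3′ on the gene's strand and ends at the base before the start used in the promoter table, with a motif match in capitals. For Itgb7 that start lies inside the RefSeq range of the gene, which begins further upstream, so its window lies within the range.
Ccr9, chr9:123766961-123767210, plus strand: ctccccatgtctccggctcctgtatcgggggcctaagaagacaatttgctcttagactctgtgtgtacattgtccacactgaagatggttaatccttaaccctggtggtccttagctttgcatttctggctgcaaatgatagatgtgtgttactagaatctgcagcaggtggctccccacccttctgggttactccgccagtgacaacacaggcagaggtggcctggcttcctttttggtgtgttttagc
Itgb1, chr8:128685404-128685653, plus strand: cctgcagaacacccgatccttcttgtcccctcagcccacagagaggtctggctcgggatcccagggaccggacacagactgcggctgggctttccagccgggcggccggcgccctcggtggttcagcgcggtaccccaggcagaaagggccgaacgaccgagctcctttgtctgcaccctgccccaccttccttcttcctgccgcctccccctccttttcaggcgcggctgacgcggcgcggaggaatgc
Itgb7, chr15:102231936-102232185, minus strand: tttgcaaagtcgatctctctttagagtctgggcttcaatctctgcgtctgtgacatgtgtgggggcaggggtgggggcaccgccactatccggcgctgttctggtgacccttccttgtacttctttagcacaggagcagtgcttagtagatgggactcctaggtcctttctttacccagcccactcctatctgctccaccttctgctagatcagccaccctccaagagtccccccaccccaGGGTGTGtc
The Itgb7 window held 1 KLF match, beginning 9 bases before that start and read on the opposite strand. The Ccr9 and Itgb1 windows held none of the 3 motifs. G and C made up 68.0% of the Itgb1 window, 56.0% of the Itgb7 window and 50.4% of the Ccr9 window. In the Itga4 window, not printed, there were KLF matches 166 and 58 bases before the start and an E-box 125 bases before it. The Cxcr4 window held none of the letters. These matches describe the letters of the windows only.

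Total counts ran from 13474162 to 23539764 reads per library. Levels are in CPM, reads of a gene relative to all reads of the library on the usual scale, after scaling by the trimmed mean of M values (TMM), and as CPM per kilobase of exon where genes are compared with one another. Bax stood at 55.7 to 100.1 CPM in apoptosis-sensitive and at 4.97 to 8.36 CPM in apoptosis-resistant libraries, and Bak1 at 24.7 to 47.9 CPM in wild-type and 6.17 to 14.4 CPM in Bak-deficient libraries. The B cell genes Ms4a1, Cd79a and Pax5 were found in every library (Ms4a1 lowest at 636.2 CPM), and Cd93, absent by the sort, stood between 9.52 and 36.1 CPM. Same-numbered old and young mice shared a collection date, as did same-numbered resistant and sensitive mice. The pair young 1 and old 1, dated 24 March of 2006 in the labels where the other dates are in 2016, stood apart: their first principal component scores were -73.7 and -75.9, against -2.4 to 24.4 in the other 10 libraries. Calls and signs of the 9 genes that changed without this pair are given both ways, as are the correlations named below. Correlations of other pairs of the 9 also changed without it and are not listed. In sorted bulk RNA, fewer cells that carry a transcript and less of it per cell cannot be told apart.

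Itgb1 and Ccr9 rose with age. Itgb1, the beta 1 subunit, stood 3.20 times higher and Ccr9, the gut and thymus receptor, 2.82 times higher in old than in young marrow B cells. Of the 9 genes, 2 passed an adjusted p of 0.05 as higher and 0 as lower, where 2.01% of all 13592 tested genes were called in either direction, 1.7% as higher. The median log2 change of the 9 was -0.05, beside -0.03 for all genes tested. No gene of the 9 passed between apoptosis-resistant and apoptosis-sensitive cells, where 0.0441% of all genes were called. An unadjusted edgeR p under 0.05 was found there for 0 of the 9 and for 666 of all 13592 genes. The median log2 difference there was 0.11, beside -0.02 for all genes.

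**Figure D1:**
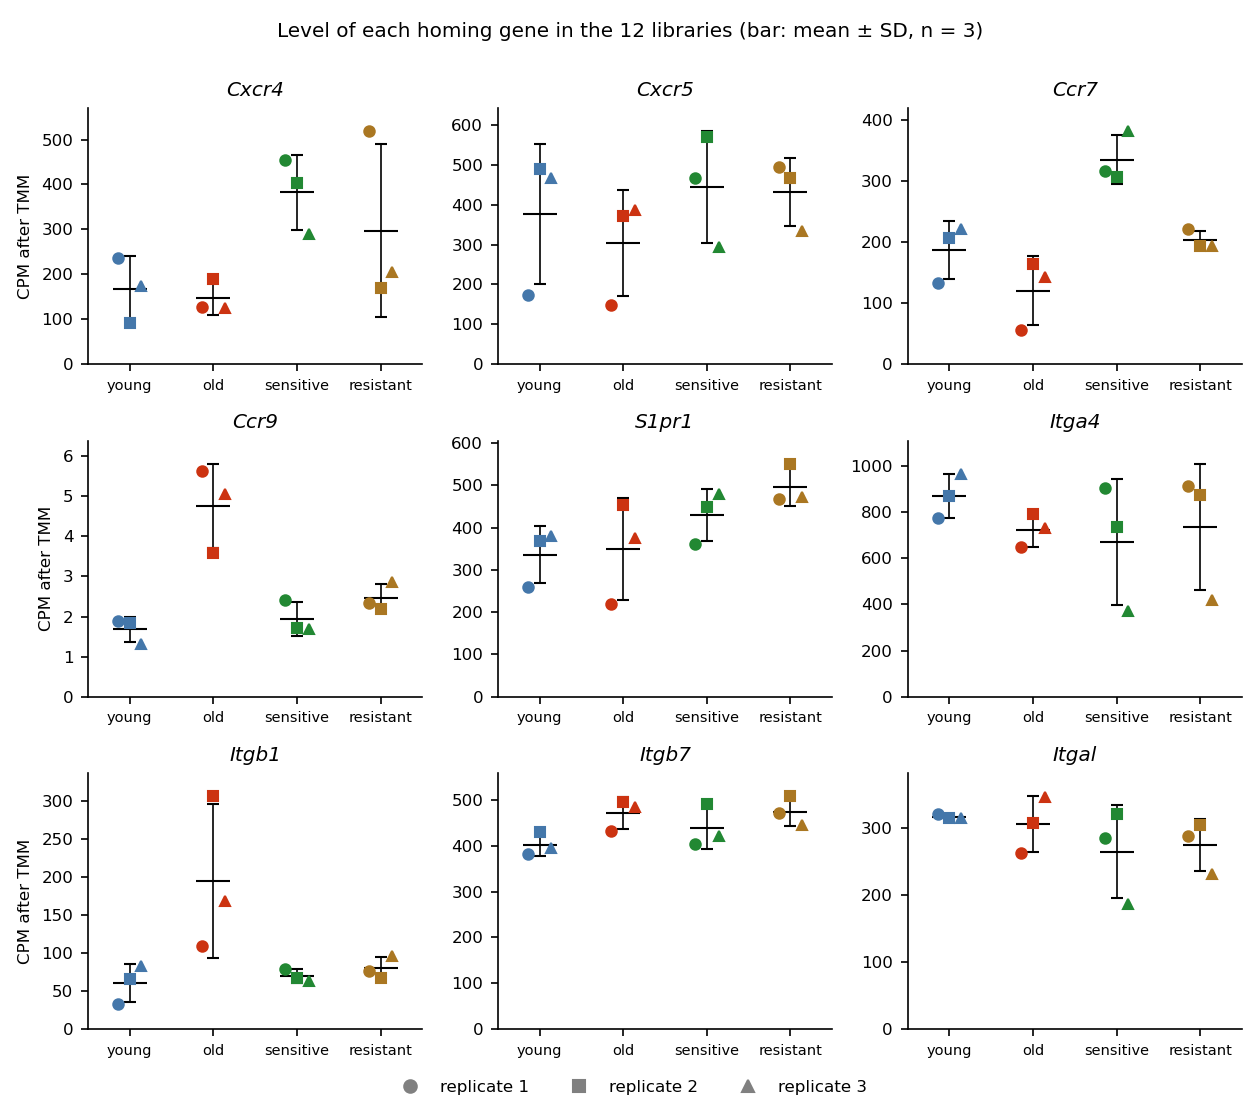
Level of each of the 9 genes (CPM after TMM, linear axis from 0) in the 12 libraries. Symbols are replicates 1 to 3 of each group, and bars give mean ± SD. Itgb1 (young 32.9 to 83.2, old 109.1 to 305.3) and Ccr9 (young 1.32 to 1.89, old 3.58 to 5.63) separate old from young libraries, and Ccr7 separates resistant from sensitive ones.

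Cxcr4 (gene 12767, chr1:128588199-128592299) encodes the receptor for CXCL12. Its level was 236.2, 91.3 and 174.8 CPM in young libraries 1, 2 and 3, and 127.2, 188.4 and 124 CPM in old ones. The old values fall inside the young range. Apoptosis-sensitive libraries stood at 454.2, 402.6 and 290.4 CPM, and resistant ones at 518, 169.9 and 204.3 CPM. Resistant library 1 was the highest of all 12 while the other two of its group lay below every sensitive library. The log2 difference with age was -0.19 ± 0.43 (SE; edgeR quasi-likelihood test with Benjamini-Hochberg adjustment, adjusted p = 0.965), and it was 0.237 without the 24 March pair. The difference between resistant and sensitive cells was -0.36 ± 0.43, with a 95% interval from -1.36 to 0.63.

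Cxcr5 (gene 12145, chr9:44511787-44526444) encodes the follicle receptor for CXCL13. Young libraries gave 172.9, 488.7 and 466.4 CPM and old ones 149.5, 371.4 and 387.1 CPM. Both libraries dated 24 March were low, and the groups overlap. Sensitive libraries gave 466.9, 570.5 and 293.5 CPM and resistant ones 494.5, 466.6 and 334 CPM. The log2 difference was -0.31 ± 0.43 with age (edgeR adjusted p = 0.930, or 0.0818 with collection date as a block) and -0.04 between resistant and sensitive cells. Cxcr5 overlaps Bcl9l on the genome, and since the strand setting of the counting was not given its reads are uncertain.

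Ccr7 (gene 12775, chr11:99144199-99155077) encodes the T zone receptor for CCL19 and CCL21. It stood at 132.8, 207.3 and 221 CPM in young and at 55.6, 163.4 and 142.8 CPM in old libraries. Old library 1 was the lowest of the 12, and the groups overlap because young library 1 lay below old libraries 2 and 3. On each date the old mouse was lower than the young one, by log2 differences of -1.25, -0.34 and -0.63. Of all genes, 25.2% were lower in all 3 date pairs with age. The difference was -0.63 ± 0.33 (95% interval -1.4 to 0.13; edgeR adjusted p = 0.549), and with date as a block Ccr7 was called as lower (-0.73, adjusted p = 0.0142), as were 7.03% of all genes. Without the 24 March pair the blocked difference was -0.48 and its edgeR adjusted p 0.0502, so that in this smaller fit the call was not made.

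In apoptosis-sensitive libraries Ccr7 reached 317.2, 306.6 and 381.5 CPM, and in resistant ones 221.5, 193.2 and 193.5 CPM. Every resistant library lay below every sensitive one, as for 8.31% of all genes in this comparison. The date pairs differed by -0.52, -0.66 and -0.98 on the log2 scale, and 23.2% of all genes were lower in all 3 pairs. The fitted difference was -0.72 ± 0.33 with an unadjusted p of 0.0508, which does not pass (edgeR adjusted p = 0.9998). With date as a block it was called as lower (-0.72, edgeR adjusted p = 0.0372), where 3.41% of all genes were called and 1.97% as lower, and it was called again without the 24 March pair (adjusted p = 0.00645). Ccr7 was thus lower in all 3 pairs of both comparisons, as were 975 of 13592 genes (7.17%), and it passed in neither without the block.

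Ccr9 (gene 12769, chr9:123767211-123783457) was at the low end of detection. Young libraries 1, 2 and 3 held 23, 43 and 20 reads, or 1.89, 1.84 and 1.32 CPM. Old libraries held 115, 70 and 94 reads, or 5.63, 3.58 and 5.05 CPM. Every old library lay above every young one, as for 9.16% of all genes. The old libraries also lay above every sensitive and resistant one, for which no share over all genes was counted. Sensitive libraries gave 2.43, 1.71 and 1.68 CPM and resistant ones 2.35, 2.18 and 2.87 CPM, from 29 to 60 reads. The log2 change with age was 1.49 ± 0.32 (95% interval 0.75 to 2.24; edgeR adjusted p = 0.0385, or 0.0109 with date as a block), with 1.36, 0.80 and 1.61 on the 3 dates. The call lies near the threshold: without the 24 March pair the change was 1.44 with an adjusted p of 0.0818, and it was called in 2 of 12 fits that left out 1 library. Between resistant and sensitive cells the difference was 0.35 ± 0.32. An uncounted lncRNA model, Gm17021, overlaps Ccr9, so that its reads are uncertain where strand is not known.

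S1pr1 (gene 13609, chr3:115710433-115715055) encodes the egress receptor. Young libraries gave 259.5, 367.9 and 381.2 CPM and old ones 218.7, 453.8 and 376.7 CPM. Sensitive libraries gave 360.4, 448.8 and 479.5 CPM and resistant ones 467.3, 550.9 and 473.2 CPM. Groups overlap in both comparisons, and the 24 March pair holds the lowest values. The log2 difference was 0.06 ± 0.26 with age (edgeR adjusted p = 0.990) and 0.21 ± 0.26 between resistant and sensitive cells.

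Itga4 (gene 16401, chr2:79255426-79333114) encodes the alpha subunit that beta 1 and beta 7 share. It stood at 775.3, 870.7 and 966.7 CPM in young and 648.2, 794 and 730.6 CPM in old libraries. Old library 2 lies above young library 1, so that the groups overlap. Sensitive libraries gave 906.9, 735.4 and 370.5 CPM and resistant ones 912.9, 874 and 419.4 CPM, and the third library of each, both dated 7 May, was the lowest of its group. The log2 difference was -0.27 ± 0.34 with age (edgeR adjusted p = 0.919, or 0.089 with date as a block) and 0.13 ± 0.34 between resistant and sensitive cells. Itga4 overlaps Cerkl, which held 897 reads in all. Since the strand setting is not known, the reads of Itga4 are uncertain to an unknown extent.

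Itgb1 (gene 16412, chr8:128685654-128733579) encodes beta 1. It was counted in 400, 1532 and 1261 reads in young libraries, at 32.9, 65.6 and 83.2 CPM. In old libraries it was counted in 2230, 5965 and 3127 reads, at 109.1, 305.3 and 168.1 CPM. Every old library lay above every young one, as for 9.16% of all genes, and old library 2 was the highest. The log2 change was 1.68 ± 0.38 (95% interval 0.8 to 2.56; edgeR adjusted p = 0.0488, or 0.00712 with date as a block), and it was 1.72, 2.21 and 1.01 on the 3 dates. Without the 24 March pair the adjusted p was 0.0249. In fits that left out 1 library each the change ran from 1.21 to 1.97. It was called in 1 of these 12, without old library 1, and its adjusted p was highest, at 0.151, without old library 2.

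In apoptosis-sensitive cells Itgb1 stood at 79.5, 66.6 and 63.2 CPM, and in resistant cells at 75.9, 66.9 and 96.1 CPM. These values overlap each other and the young range. The log2 difference between resistant and sensitive cells was 0.19 ± 0.37. Its 95% interval, from -0.67 to 1.05, overlaps that of the age change, from 0.8 to 2.56.

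Itgb7 (gene 16421, chr15:102215994-102233405) encodes beta 7, and its libraries of each group were close together. Young libraries gave 381.3, 430.5 and 395.1 CPM and old ones 432.2, 496.1 and 484.6 CPM. Every old library lay above every young one, as for 9.16% of all genes, though young library 2 and old library 1 almost met. The log2 difference of 0.23 ± 0.17 did not pass (edgeR adjusted p = 0.7505). Sensitive libraries gave 402.5, 490.3 and 422 CPM and resistant ones 471.2, 507.2 and 444.4 CPM, a log2 difference of 0.11 ± 0.17.

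Itgal (gene 16408, chr7:127296139-127335137) encodes alpha L. Its 3 young libraries gave 320.6, 313.7 and 313.6 CPM, close to one another, and old ones 261.6, 307.4 and 344.7 CPM. The old libraries lie on either side of the young ones. Sensitive libraries gave 284.7, 320.6 and 186.5 CPM and resistant ones 287.4, 304.1 and 230.8 CPM, again lowest on 7 May. The log2 difference was -0.05 ± 0.22 with age (edgeR adjusted p = 0.986), with the opposite sign when libraries were scaled by their totals (0.055), and 0.05 ± 0.22 between resistant and sensitive cells.

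**Figure D2:**
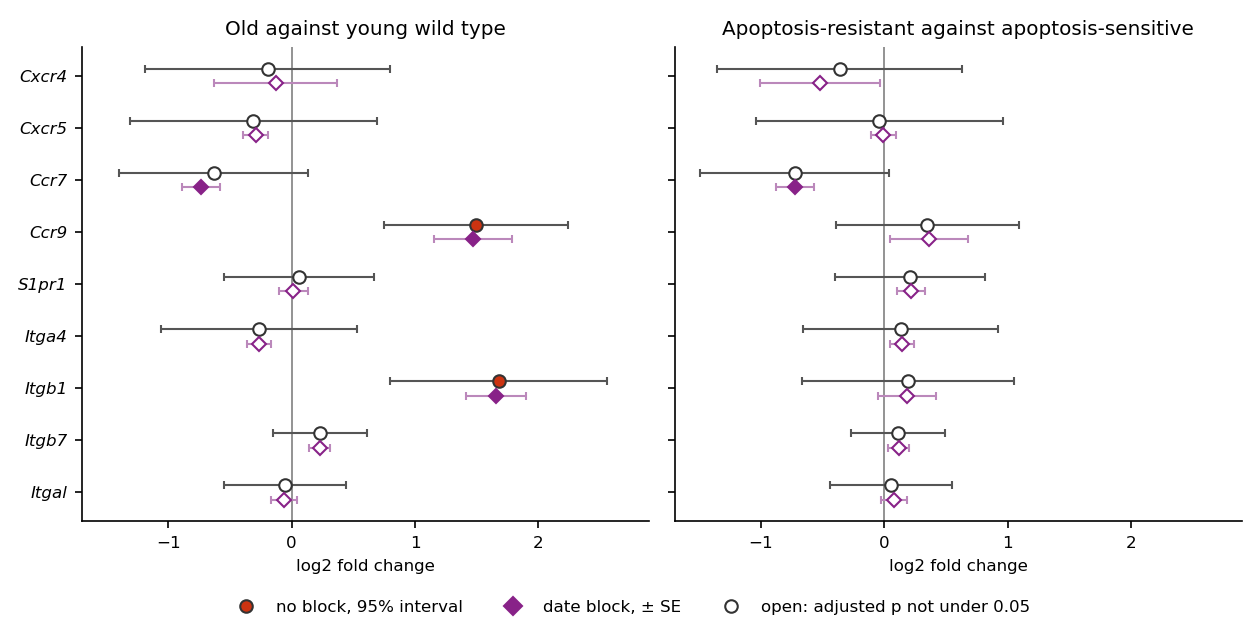
Log2 fold change of each gene for old against young and for resistant against sensitive cells. Circles are the fit without a block with its 95% interval, diamonds the fit with collection date as a block ± SE, and filled symbols pass an adjusted p of 0.05. The age intervals of Itgb1 (0.8 to 2.56) and Ccr9 (0.75 to 2.24) lie above 0, and Ccr7 is filled with the block alone, in both comparisons.

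The age and genotype effects were set against each other in the same fit. For Itgb1 the age effect exceeded the genotype effect by 1.49 ± 0.53 on the log2 scale, which did not pass (edgeR adjusted p = 0.465, or 0.0502 with date as a block). For Ccr9 the excess was 1.14 ± 0.45 (edgeR adjusted p = 0.567, or 0.157 with the block). For Ccr7 the difference between effects was 0.09 ± 0.47. Of the 9 genes, 0 were called, where 0.25% of all genes were. The age changes of Itgb1 and Ccr9 are thus not shown to differ from their genotype differences.

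Apoptosis-sensitive cells were also set against young wild-type cells, which were of like age but collected on other dates, so that genotype and date cannot be told apart. In this comparison edgeR called 0 of 13592 genes, with 371 at an unadjusted p under 0.05, while DESeq2 called 14 and limma voom 0. Cxcr4 was higher by 1.19 ± 0.44 and Ccr7 by 0.84 ± 0.33 on the log2 scale, with every sensitive library above every young one, as for 4.57% of all genes, but neither passed (edgeR adjusted p = 0.824 for both). Resistant cells, compared with the same young libraries, differed by 0.83 ± 0.43 for Cxcr4 (edgeR adjusted p = 0.811) and by 0.56 ± 0.27 for S1pr1. S1pr1, Ccr9 and Itgb7 lay above every young library and Itgal below, where 6.64% and 6.22% of all genes did, and 0 of the 9 were called, with 0.162% of all genes.

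**Figure D3:**
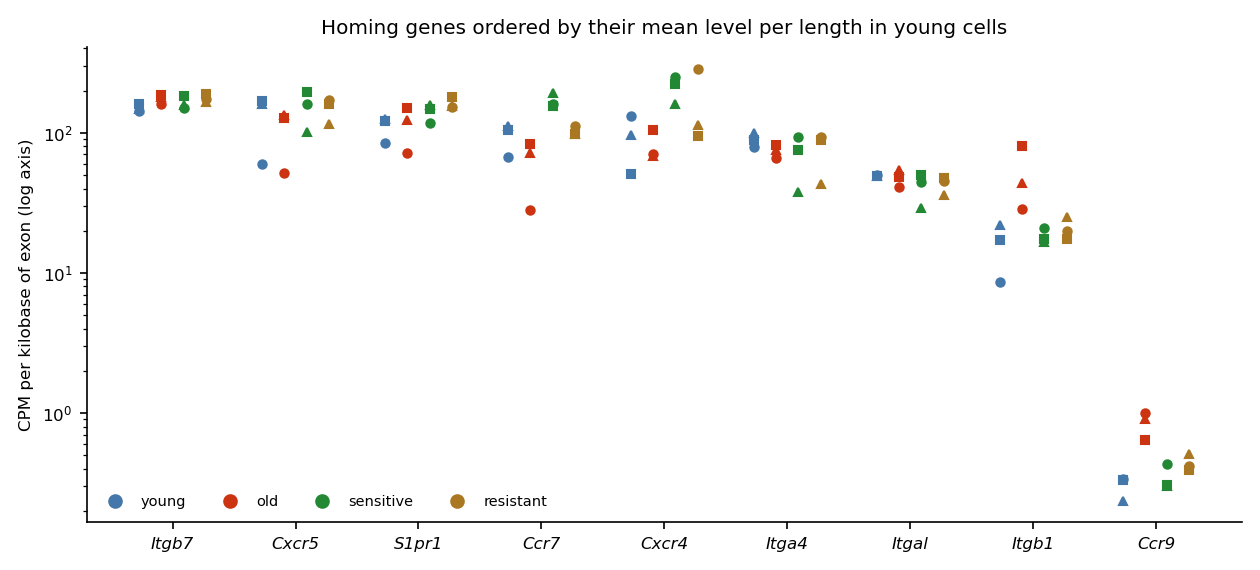
Level per exon length (CPM per kilobase, log axis) of the 9 genes in each library, 1 point per library, coloured by group and ordered by the mean in young cells. Ccr9 is lowest in every library, and the old libraries of Itgb1 (mean 50.9) lie nearer to Itgal (47.7) than the young ones (15.9) do.

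Per exon length, the order of levels was led by Itgb7 in young cells, at 149.9 ± 9.46 CPM per kilobase (SD, n = 3). Cxcr5 (129.7), S1pr1 (110.4), Ccr7 (94.6), Cxcr4 (92.8) and Itga4 (89.2) followed, and each of these overlapped its neighbour in the order. Itgal (49.5 ± 0.628), Itgb1 (15.9 ± 6.69) and Ccr9 (0.301) each stood below the gene before without overlap. In old cells Itgb7 (175.5) stood alone at the head, and from S1pr1 (114.8) down to Itgb1 (50.9) and Itgal (47.7) every neighbour overlapped, so that Itgb1 no longer stood apart from Itgal. In apoptosis-sensitive cells Cxcr4 (211.9) and Ccr7 (169.4) had the highest means, overlapping Itgb7 (163.3). In resistant cells Itgb7 (176.8), Cxcr4 (164.8), S1pr1 (163.2) and Cxcr5 (148.9) overlapped. Ccr7 (102.5) stood below every library of Itgb7, S1pr1 and Cxcr5 and overlapped Cxcr4.

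The balance of the beta partners of alpha 4 was read as the log2 ratio of Itgb1 to Itgb7 reads per kilobase within a library. It was -4.04, -3.22 and -2.76 in young and -2.49, -1.21 and -2.04 in old libraries. Every old library lay above every young one, a mean difference of 1.43 on the log2 scale (exact two-sided permutation test, p = 0.1, the smallest that 3 against 3 libraries can give). In linear terms Itgb1 amounted to 0.0606, 0.107 and 0.148 of Itgb7 in young libraries and to 0.178, 0.433 and 0.244 in old ones, so Itgb7 stayed the more abundant beta RNA throughout. The ratio was -2.85, -3.39 and -3.25 in sensitive and -3.14, -3.43 and -2.72 in resistant cells, which overlap (difference 0.06, exact p = 0.8).

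The log2 ratio of Cxcr4, the retention receptor, to S1pr1, the egress receptor, was 0.62, -1.26 and -0.37 in young and -0.03, -0.51 and -0.85 in old libraries. The groups overlap, with a difference of -0.13 (exact two-sided permutation p = 0.9). It was 1.09, 0.60 and 0.03 in sensitive and 0.90, -0.94 and -0.46 in resistant libraries, lower in each resistant library than in the sensitive one of its date, by -0.19 to -1.54. The mean difference of -0.74 did not pass (exact two-sided permutation p = 0.3). A ratio shows unequal change only, not which of the genes moved.

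**Figure D4:**
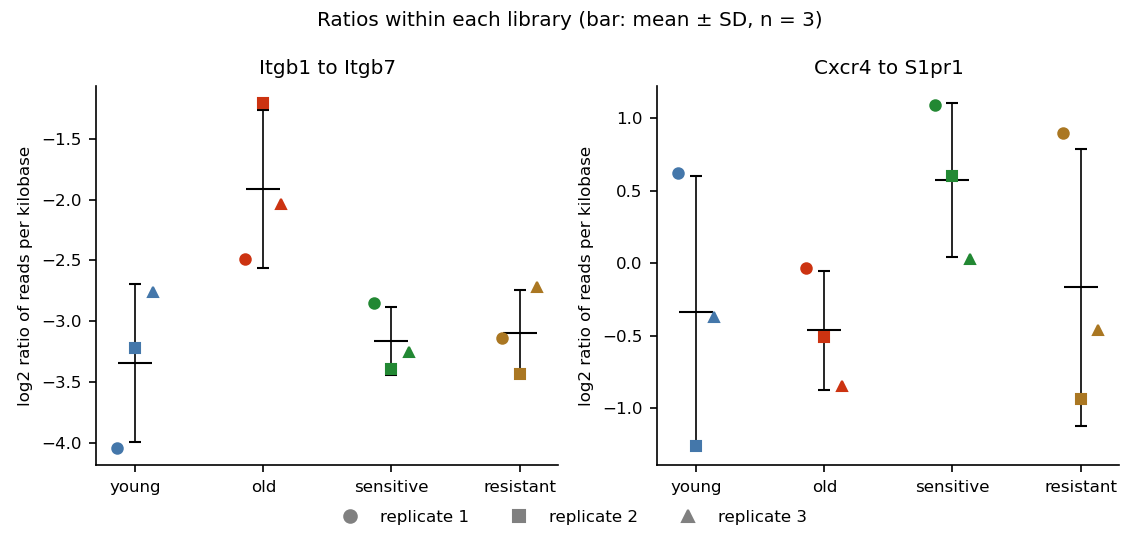
Log2 ratios of reads per kilobase within each library, for Itgb1 to Itgb7 and for Cxcr4 to S1pr1. Symbols are replicates 1 to 3, which share a date between young and old and between sensitive and resistant, and bars give mean ± SD. The Itgb1 to Itgb7 ratio is higher in the old mouse of each date, and the groups of the Cxcr4 to S1pr1 ratio overlap.

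Among themselves, the 9 genes varied together in part. Over the 12 libraries the levels of Itga4 and Itgal had a Pearson r of 0.843, and 0.831 after group means were taken off. Without the 24 March pair these were 0.847 and 0.861 over 10 libraries. Both genes were lowest in sensitive library 3 and resistant library 3, which shared a date. Itga4 stood there at 370.5 and 419.4 CPM, against 648.2 to 966.7 CPM in the other libraries. Itgal stood there at 186.5 and 230.8 CPM, against 261.6 to 344.7 CPM in the others. The correlation without these libraries was not computed, so its dependence on them was not tested. Ccr7 and S1pr1 had 0.705, and 0.917 as deviations from group means, but 0.037 and 0.4 without the 24 March pair. Ccr7 and Itgb1 had -0.249 over all libraries and 0.791 as deviations, and -0.659 and 0.222 without the pair, so that both likenesses as deviations rest on it. Libraries of one date and depth enter each of these values, which are descriptions.

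By likeness of log2 CPM over the 12 libraries, the genes closest to Itgb1 were Mreg, which encodes melanoregulin (Pearson r 0.975), and Grk5, a kinase that desensitises G protein-coupled receptors (r 0.972). Mreg stood at 6.68 ± 2.74 CPM in young and 23.0 ± 11.4 CPM in old cells (SD, n = 3), and rose by 1.78 ± 0.40 (edgeR adjusted p = 0.0442). Closest to Ccr9 were Il12rb1, a subunit of the IL-12 and IL-23 receptors (r 0.942), and Cyb5r2, a cytochrome b5 reductase (r 0.941). Il12rb1 rose from 2.15 ± 0.417 to 10.7 ± 1.19 CPM (log2 2.32 ± 0.31, edgeR adjusted p = 0.00514). Cyb5r2 was counted in 0 to 2 reads in young libraries and 43 to 129 in old ones. The closest genes to Itgb1 and Ccr9 were picked on these same libraries, age difference included.

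The wider set of homing and adhesion genes held 122 genes, 103 of them tested. With age 7 rose and 1 fell, where 2.01% of all genes were called, and the median log2 change was -0.03, as over all genes. With date as a block 20 rose and 10 fell, where 14.9% of all genes were called, and without the 24 March pair 8 rose and 1 fell. Between resistant and sensitive cells 0 rose and 0 fell, or 1 and 3 with the block, and the median was -0.04.

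Among 13 tested of 19 other chemokine receptors 2 rose with age, or 4 with date as a block, and the median log2 change was 1.43. One of these was Ccr1, a receptor for inflammatory chemokines such as CCL3 (4.07 ± 1.39 to 17.3 ± 1.48 CPM; log2 2.09 ± 0.31, edgeR adjusted p = 0.00709). Of the 13 tested, Ccr6 was the most abundant, at 100.8 ± 34.3 CPM in young and 137.7 ± 34.4 CPM in old cells. It differed by 0.45 ± 0.35 on the log2 scale (edgeR adjusted p = 0.777). The others averaged at most 4.24 CPM in young cells, so the median is largely of genes with few reads. Of 15 genes of tissue positioning and sphingosine-1-phosphate, S1pr5, a second receptor of S1pr1's ligand, was the 1 that rose, from 0.254 ± 0.294 to 3.46 ± 1.64 CPM (log2 3.76 ± 0.77), with at most 9 reads in a young library. With the block 3 of these genes were higher and 1 lower, and the median of that list was -0.16.

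Of 16 tested other integrin subunits, Itgax, the alpha X subunit known as CD11c, was the 1 that rose. It was counted in 5, 8 and 27 reads in young and in 505, 263 and 163 reads in old libraries (log2 4.22 ± 0.67, edgeR adjusted p = 0.0100), and the list's median was 0.66. With date as a block 4 of these subunits were higher. Of 19 genes of integrin activation 0 were called, and 2 were lower with date as a block. Their most abundant genes were Coro1a, an actin regulator (2040 ± 262.1 to 2000 ± 192.9 CPM), Sipa1, which switches off the integrin activator Rap1 (1264 ± 412.3 to 851.2 ± 186.2 CPM; log2 -0.57 ± 0.27, edgeR adjusted p = 0.456, or 0.0114 with the block), and Tln1, which encodes talin (1004 ± 196.7 to 969 ± 175.9 CPM). Rasgrp2 was the other gene lower with the block, at 906.5 ± 558.7 CPM in young and 484 ± 229 CPM in old cells. Its log2 difference was -0.905 ± 0.405 (edgeR adjusted p = 0.417, or 0.00172 with the block). The list's median was -0.07.

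Of 18 genes of Gi signalling and its desensitisation, 2 rose and 1 fell with age, or 3 and 2 with date as a block. Grk5 rose from 7.76 ± 3.03 to 24.1 ± 8.57 CPM (log2 1.63 ± 0.34, edgeR adjusted p = 0.0328). Rgs3, a protein that speeds the shut-off of G proteins, rose from 8.85 ± 0.764 to 23.7 ± 3.84 CPM (1.42 ± 0.21). Rgs18, of the same family, fell from 10.4 ± 3.20 to 2.30 ± 1.40 CPM (-2.18 ± 0.40). The members that moved include opposite directions within 1 family, and the list's median was -0.03.

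Of 9 tested genes of selectins and rolling 0 were called, or 2 as higher and 1 as lower with date as a block. Pecam1, an adhesion molecule of leukocytes and endothelium, and Adam10, a protease that sheds surface proteins, differed by -0.13 and -0.19. Of 5 transcription factors of homing 0 were called, and 3 were lower with the block, with a median of -0.42. Klf2, known to drive S1pr1, stood at 942.4 ± 94.1 and 735 ± 217.9 CPM (-0.36 ± 0.40, edgeR adjusted p = 0.888). Bach2, which holds back plasma cell differentiation, differed by -0.47 ± 0.27 and Foxo1 by -0.42 ± 0.36, and with the block Foxo1 had an edgeR adjusted p of 0.0120.

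Of 8 tested ligands of the 9 receptors and integrins 1 rose, and the median was 1.2. This was Cxcl12, the ligand of CXCR4, which marrow stromal cells make. It stood at 1.73, 2.14 and 9.50 CPM in young and at 12.7, 63.7 and 109 CPM in old libraries (log2 3.79 ± 0.84, edgeR adjusted p = 0.0419). With date as a block 4 ligands were higher and 1 lower. Summed over 7 stromal and endothelial markers the level was 1.31 to 4.35 CPM in young and 5.68 to 37.5 CPM in old libraries, and was highest in old library 3, as Cxcl12 was. Of these markers 0 of 5 tested were called, or 4 as higher with the block. Their part in the Cxcl12 result was not tested.

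**Figure D5:**
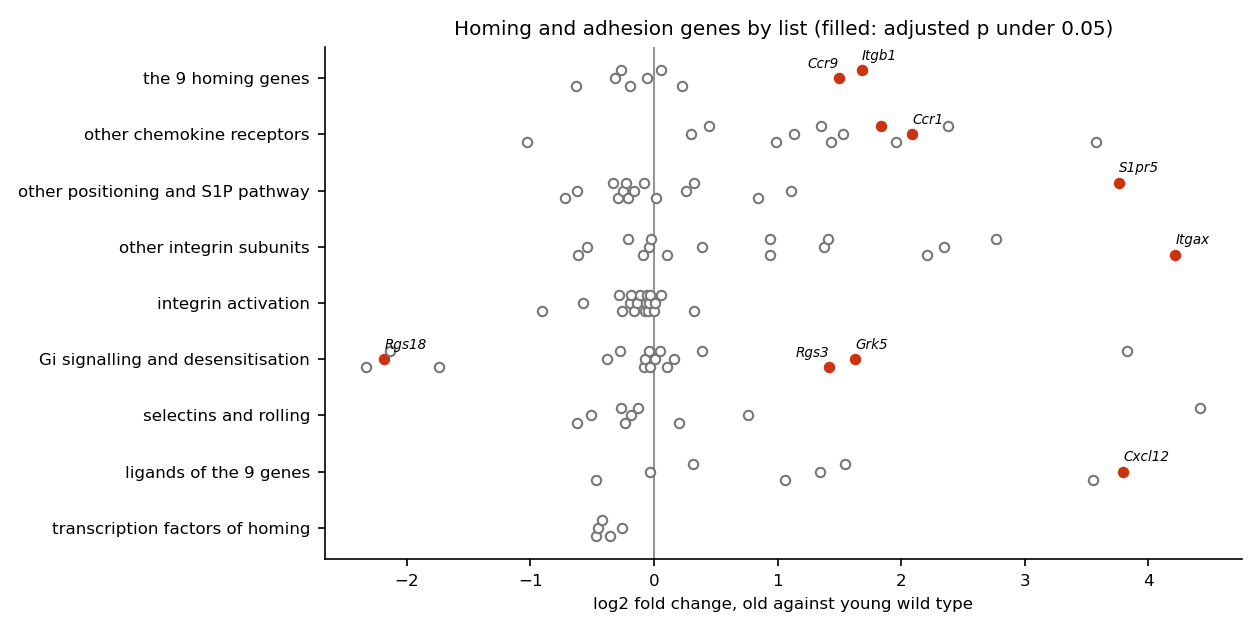
Log2 age change of every tested gene in the 9 genes and in each wider homing list, 1 point per gene, filled where the adjusted p is under 0.05. Other chemokine receptors (median 1.43) and ligands (1.2) spread to the right. Integrin activation genes have a median of -0.07, with Rasgrp2 lowest at -0.905. Apart from Ccr6, the other chemokine receptors averaged at most 4.24 CPM in young cells.

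Markers of other cells moved with age beside Itgb1 and Ccr9. Age-associated B cell markers rose for 5 of 7 genes (Itgax, Tbx21, Fcrl5, Cd80 and Nt5e), or 4 without the 24 March pair. With date as a block 5 were higher, Zeb2 among them and not Tbx21. Their summed level was 92.03 to 129.5 CPM in young and 252.9 to 374.3 CPM in old libraries. Of 9 B-1 and marginal zone markers Bhlhe41 and Zbtb32 rose (4 higher and 2 lower with the block), with sums of 1391 to 1933 and 1304 to 1620 CPM. Of 8 immature B cell markers Cd93 and Sox4 fell, and 7 were lower with the block. Their median log2 change was -1.9, with sums of 330.4 to 715.8 and 237.9 to 520.4 CPM. Cd93 also stands among the 11 B cell identity genes, of which it was the 1 called, as lower (3 with the block). The summed level of that list was 21750 to 22910 CPM in young and 16200 to 20150 CPM in old libraries.

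Of 6 plasma cell markers, which include Jchain, 0 were called. Their summed level was 348.6, 390.4 and 646.8 CPM in young and 306.3, 1522 and 501.8 CPM in old libraries, and the library that is highest here, old 2, is also highest for Itgb1. T cell markers summed to 39.4 to 76.4 and 55.1 to 86.8 CPM, with Cd3g and Tcf7 higher among 11. With the block 7 of the 11 were higher, and their median log2 change was 2.48. The sums include genes that B cells also express. NK cell markers summed to 0.600 to 1.45 CPM in young and 4.71 to 7.47 CPM in old libraries, with Ncr1 and Klrk1 higher among 4 tested of 5 and all 4 higher with the block, and up to 2 of the 5 markers were at 0 in a young library.

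Monocyte and macrophage markers summed to 30.1 to 155.2 and 60 to 239.7 CPM, with Adgre1 higher among 9, or 6 higher with the block. Plasmacytoid dendritic cells also carry Ccr9, and of their 6 tested markers 0 were called, or 2 as higher with the block, with sums of 266 to 290.8 CPM in young and 325.5 to 396.3 CPM in old libraries. Their defining marker Siglech stood at 0.986, 0.942 and 3.36 CPM in young and 0.881, 1.95 and 2.31 CPM in old libraries, which overlap. The called markers in the blocked fit were Tcf4, also a B cell gene (log2 0.44 ± 0.17 unblocked, edgeR adjusted p = 0.318, or 0.0150 with the block), and Runx2 (2.50 ± 0.63, 0.0709, or 0.00589 with the block), and every old library lay above every young one for both. Tcf4, at 209.5 ± 18.8 CPM in young and 284.2 ± 40.1 CPM in old cells, made up most of the summed level of this list. Granulocyte markers (26.4 to 774 and 109.1 to 686.4 CPM) and erythroid markers (19.6 to 242.3 and 21.0 to 150.9 CPM) overlapped between the ages with 0 called, and no megakaryocyte marker passed the low-count filter. The part of these cells in the Itgb1 and Ccr9 results was not tested.

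Beside Ccr7, the immature B cell markers summed to 671.4 to 1122 CPM in apoptosis-sensitive and 537.5 to 575.3 CPM in resistant libraries, a separation in the same direction. The median log2 difference of these 8 markers was -0.61, and not all followed the sum. Rag1 was higher in every resistant library than in every sensitive one (log2 1.64 ± 0.72, edgeR adjusted p = 0.997). Without a block 0 genes of the 13 marker lists were called between these groups. With date as a block, the fit in which Ccr7 was called, the immature markers Cd93 (edgeR adjusted p = 0.00851) and Cd24a (0.0251) were lower, as was Fcrl5 (0.0316), and Tcf7, Csf1r and Cd80 were higher. The immature list was not alone in its separation. Granulocyte markers summed to 77.7 to 737.5 CPM in sensitive and 29.3 to 68.9 CPM in resistant libraries. B cell identity genes summed to 21460 to 21830 CPM in sensitive and 19890 to 20570 CPM in resistant libraries. NK cell markers, of few reads, summed to 1.823 to 2.104 CPM in sensitive and 0.303 to 1.004 CPM in resistant libraries. The sums of the other marker lists overlapped between these groups. The part of any of these lists in the Ccr7 difference was not tested.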

How the data were processed

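The authors deposited whole-number read counts per gene in 1 table of 12 columns, named by Entrez gene. The submitters' processing notes name Subread, featureCounts and the build mm10. For the counting, their versions, annotation and strand setting are not given in the sources used here. Per the labels' protocols polyadenylated RNA was prepared with the Illumina TruSeq RNA v2 kit. Symbols and coordinates came from RefSeq GRCm38.p6 (25275 of 27179 matched) and exon lengths from GENCODE M21.

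The 13592 genes kept by filterByExpr (minimum 10 reads) were fitted by group over all 12 libraries with edgeR 4.0.16 (TMM, robust quasi-likelihood, 8 residual degrees of freedom), and p was adjusted by Benjamini-Hochberg at 0.05. An adjusted p with no tool named is from edgeR. Same-numbered libraries share a collection date in the labels, and their deviations from group means correlated at 0.8, 0.588 and 0.593 (age) and 0.375, 0.407 and 0.584 (genotype). Libraries of different dates gave -0.69 to 0.472 (age) and -0.48 to 0.29 (genotype). Date as a block is therefore given beside calls and list counts it changes.

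Alternatives were the date block, DESeq2 1.42.0, limma voom 3.58.1, other scalings, no filter, fewer libraries and each library left out. Members and lists were chosen with earlier results of these data known. All 9 members were named, with each list gene that passed, or otherwise its 3 most abundant genes, and the 2 genes most correlated with each member that passed. A few genes that this rule names are not reported here. P values of the fits by group set a difference against the spread between libraries within groups, estimated jointly over all groups fitted. The 3 libraries of a group are described as biological replicates in the series design. Total counts of 13474162 reads or more limit precision for Ccr9 and other genes of few reads.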

Additional observations from a re-analysis of the deposited data

How the results depend on the processing

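With 3 libraries a group, the edgeR calls of Itgb1 and Ccr9 lie near the threshold. Of the 9 genes 2 were called with age, 1 without the low-count filter, 0 when only the 6 libraries compared were fitted, 1 without the 2 libraries dated 24 March and 0 to 1 when single libraries were left out. Itgb1 had an adjusted p of 0.274 with the 6 libraries, where Ccr9 had 0.205, and Ccr9 had 0.0581 without the filter. DESeq2 gave them 0.000891 and 0.000514, and limma voom 0.0451 and 0.0316. The replicate block by collection date called 1 of the 9, Ccr7, between resistant and sensitive cells (adjusted p = 0.0372), and Ccr7 with age (0.0142), or 0.0502 with the 24 March pair left out as well, a setting chosen after seeing the data. It changed no other call of the 9.

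Over all genes, the 273 age calls became 700 with DESeq2, 2028 with the replicate block, 1 with the 6 libraries and 75 to 267 with single libraries left out. The share of higher calls was 84.6%, and 52.9% with the block. The 6 genotype calls became 11 without the filter, 128 with DESeq2, 10 with limma voom, 463 with the block, 31 without the 24 March pair and 0 to 13 with single libraries left out. The 34 calls of the difference between effects became 255 with DESeq2, 955 with the block, 75 without the 24 March pair and 2 to 37. Sensitive against young cells gave 3 calls without the filter, 14 with DESeq2, 3 without the 24 March pair and 0 to 4, and resistant against young gave 22, then 34, 148, 12 with 6 libraries and 10 to 31.

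Signs of uncalled log2 differences turned as follows. Without the 24 March pair they were 0.237 (Cxcr4) and 0.058 (Itgal) with age, -0.091 (Cxcr5) and -0.075 (Itgb1) for sensitive against young, and -0.127 (Cxcr5) and -0.059 (Ccr7) for resistant against young. Library totals gave Itgal 0.055, and moved the median of all genes from -0.03 to 0.08. The difference between effects for Ccr7 was -0.013 with limma voom and -0.014 with the block. With single libraries left out, the age ranges were -0.492 to 0.158 (Cxcr4), -0.645 to 0.01 (Cxcr5), -0.166 to 0.303 (S1pr1) and -0.156 to 0.044 (Itgal), and the genotype ranges -0.253 to 0.189 (Cxcr5), -0.147 to 0.422 (Itga4) and -0.131 to 0.224 (Itgal). For the difference between effects they were -0.135 to 0.832 (Cxcr4), -0.601 to 0.04 (Cxcr5), -0.19 to 0.423 (Ccr7), -0.382 to 0.081 (S1pr1) and -0.275 to 0.071 (Itgal). Against young cells they were -0.086 to 0.465 (Cxcr5) and -0.069 to 0.505 (Itgb1) for sensitive, and -0.129 to 0.43 (Cxcr5), -0.06 to 0.273 (Ccr7) and -0.435 to 0.052 (Itga4) for resistant cells. The Itgb1 to Itgb7 ratio differed by 1.08 to 1.72 with age and -0.13 to 0.23 by genotype, and the Cxcr4 to S1pr1 ratio by -0.59 to 0.35 and -1.27 to -0.35. The causes were not tested.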
